A study of Mus musculus with 2 samples.

Results

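The tendon- and cartilage-like interstitial cells were 984 of the 4473 cell barcodes of 2 Drop-seq libraries of mouse heart valve. They were selected on their own counts: a barcode was a member when Col1a1, Col1a2, Col3a1 and Dcn together made up at least 1% of its unique molecular identifiers (UMIs, each standing for 1 captured transcript) and it held at least 3 UMIs of the 4 markers Chad, Angptl7, Fibin and Chrdl1 together. The levels of those 8 genes in members follow from the choice and are given as description only. It gave 153 members among 722 matrix-rich barcodes of 961 at postnatal day 7 (P7), and 831 among 2846 of 3512 at postnatal day 30 (P30). The other 569 and 2015 matrix-rich barcodes were the comparison. None of the 239 and 666 barcodes under the matrix minimum held 3 marker UMIs, which allows at most 1.53% and 0.552% of them to do so (exact binomial limits).

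Valve interstitial cells are the fibroblast-like cells inside the leaflets, and they lay down the collagens, proteoglycans and elastic fibres that let a leaflet bend and bear load. Where leaflets and their chordae are under tension, valve cells are known to share matrix genes with tendon (the transcription factor scleraxis, encoded by Scx, and the fibril-binding proteins fibromodulin and COMP) and with cartilage (the minor fibrillar collagen of type XI, type IX collagen and the proteins that fill the space between fibrils). Of the markers, Chad encodes chondroadherin, a leucine-rich protein of cartilage that binds cells and collagen. Angptl7 encodes a secreted angiopoietin-like protein, Fibin a secreted protein named for fin bud initiation, and Chrdl1 a secreted antagonist of bone morphogenetic proteins.

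The study profiled single cells of the aortic and mitral valves of C57BL/6J mice by Drop-seq, in which each droplet joins 1 cell to 1 barcoded bead and the 3′ ends of transcripts are counted. There was 1 library at each of the 2 ages, with no genetic change or treatment named. The number of animals pooled was not stated, so no test was possible and no p-value is given. The libraries also came from different runs, and age and run cannot be told apart.

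Members held 627180 UMIs at P7 and 2957143 at P30, against 1557376 and 5473017 in the other matrix-rich cells. Their median depth was higher, at 3114 against 1940 UMIs per cell at P7 and 3022 against 2327 at P30, and a minimum of 3 marker UMIs is met more easily by a deeper cell. No barcode occurred in both libraries. Doublets were not called, and 1 member of each library exceeded 20000 UMIs. Levels are given below as UMIs of a gene per 1000000 UMIs summed over a group of cells (CPM). Every interval is at 95% and covers counting error only, not differences between animals.

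Members made up 21.2% of the matrix-rich cells at P7 (exact Clopper-Pearson interval 18.3% to 24.4%) and 29.2% at P30 (27.5% to 30.9%). With every cell thinned to 1000 UMIs and shallower cells left out (632 and 2697 cells remained), the shares were 9.45% and 14.6%, and at 500 UMIs they were 3.19% and 6.46%. The share was higher at P30 at each of these depths. No gap in marker UMIs set members apart: 73 and 272 cells lay just under the minimum at 2 UMIs and 33 and 161 just inside it at 3. A further 38 and 262 cells held 10 or more. Counts this low can run on without a gap in a discrete type as well, so they do not tell a range from a type.

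**Figure D1:**
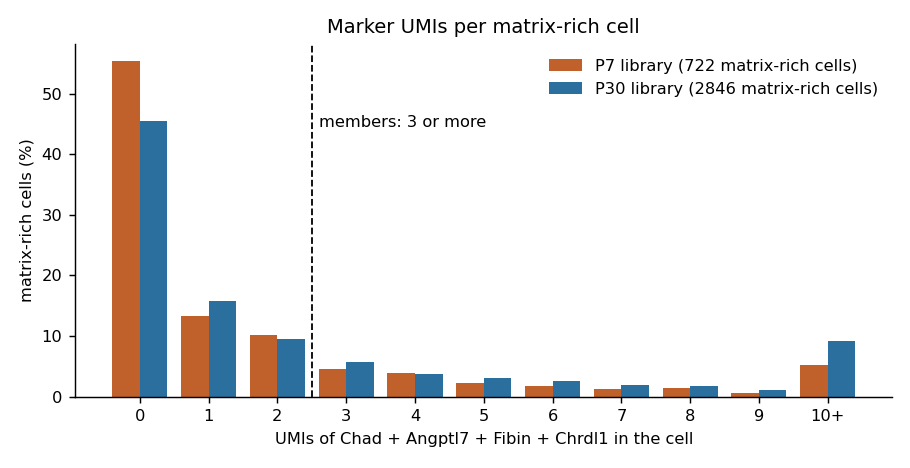
Share of matrix-rich cells (vertical axis, percent) by the number of UMIs of the 4 markers in the cell (horizontal axis), for the P7 library (orange) and the P30 library (blue). The dashed line marks the minimum of 3; no gap separates the 73 and 272 cells at 2 UMIs from the 33 and 161 at 3, and 5.26% and 9.21% of cells held 10 or more.

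The 4 markers reached membership in different proportions at the ages. At P7, 144 of 153 members carried a Fibin UMI, 86 carried Chrdl1, 76 Angptl7 and 35 Chad. At P30, 672 of 831 carried Angptl7, 651 Fibin, 293 Chrdl1 and 292 Chad. Fibin was thus the common marker at P7, while Angptl7 and Fibin were about equally common at P30. Members with at least 2 of the 4 markers numbered 110 (71.9%) and 641 (77.1%), and members with all 4 numbered 20 and 111. These shares follow from the rule and are a description.

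Free RNA can put a UMI into a cell that does not express the gene, so the markers were also read in 103 P7 and 213 P30 endothelial-like cells (median 2694 and 3241 UMIs), a type that should lack them. They were barcodes under the matrix minimum with at least 3 UMIs of endothelial markers, so endothelial barcodes with more matrix RNA were left out. Chad was in 0 and 2 of these cells, Angptl7 in 0 and 5, Fibin in 1 and 3 and Chrdl1 in 3 and 0. Thinned to 1000 UMIs, Angptl7 was carried by 26.2% of members at P7 and 57.7% at P30, against 0% and 0.409% of endothelial-like cells. In the other matrix-rich cells the shares were 2.99% and 8.68%. Members were chosen for marker UMIs, so their shares follow from the rule and only the other cells speak to free RNA. The least carried marker at P7, Chad, was in 12.4% of thinned P7 members and 23.4% of thinned P30 members.

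A marker level that the rule did not use is had by choosing cells on the other 3 markers. Cells with at least 3 UMIs of the other markers held Chad at 161 CPM at P7, against 8.32 CPM in the remaining matrix-rich cells, a 19.3-fold difference (log2 4.27, interval 3.43 to 5.23). At P30 the levels were 336 and 45.0 CPM, 7.47-fold apart. For Chrdl1 the folds were 9.55 and 9.39, for Angptl7 8.48 and 4.40, and for Fibin 3.97 and 4.39. All 8 values put the left-out marker higher in the cells chosen without it. At 1000 UMIs per cell, carriers of 1 marker also carried another between 2.10 and 6.74 times as often as non-carriers, over the 12 ordered pairs in each library. The members were chosen with earlier results of these data known. These values therefore describe how the markers go together and are not independent support for the group.

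On the mouse genome build GRCm38, Chad lies on chromosome 11 (94565047-94569127, plus strand), Angptl7 on chromosome 4 (148495183-148500460, minus), Fibin on chromosome 2 (110360917-110363183, minus) and Chrdl1 on chromosome X (143285674-143394262, minus). The markers are therefore spread over 4 chromosomes and are not neighbours. The RefSeq promoter windows (build GRCm38.p6, from 250 bases before to 50 after the annotated start) of 3 marker genes are shown with that of Fmod, because these genes were high in the same cells. The letters searched for were CAGATG, or CATCTG on the other strand, an E-box of the kind scleraxis is known to bind, and ACAATG or CATTGT, a SOX-type core. Capitals mark a match to the E-box, and sequences run 5′ to 3′ on the gene's strand, for Chad at chr11:94564797-94565096 (plus), Angptl7 at chr4:148500413-148500712 (minus), Fibin at chr2:110362944-110363243 (minus) and Fmod at chr1:134037004-134037303 (plus).
Chad: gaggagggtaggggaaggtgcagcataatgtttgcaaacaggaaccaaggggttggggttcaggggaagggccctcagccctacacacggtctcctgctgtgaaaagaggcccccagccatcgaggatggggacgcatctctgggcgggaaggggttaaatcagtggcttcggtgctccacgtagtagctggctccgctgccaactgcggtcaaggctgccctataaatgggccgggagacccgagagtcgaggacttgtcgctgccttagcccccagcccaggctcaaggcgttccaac
Angptl7: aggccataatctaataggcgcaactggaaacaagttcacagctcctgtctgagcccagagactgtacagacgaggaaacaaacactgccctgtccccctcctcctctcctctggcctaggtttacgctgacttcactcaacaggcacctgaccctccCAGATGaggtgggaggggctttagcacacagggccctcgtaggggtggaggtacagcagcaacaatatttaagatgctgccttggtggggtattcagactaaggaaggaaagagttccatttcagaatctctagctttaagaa
Fibin: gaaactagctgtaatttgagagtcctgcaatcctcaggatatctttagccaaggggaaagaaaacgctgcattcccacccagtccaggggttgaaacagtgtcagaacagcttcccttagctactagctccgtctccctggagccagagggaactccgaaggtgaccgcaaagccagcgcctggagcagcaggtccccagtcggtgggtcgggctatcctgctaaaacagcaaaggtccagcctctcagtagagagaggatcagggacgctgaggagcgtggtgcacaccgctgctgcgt
Fmod: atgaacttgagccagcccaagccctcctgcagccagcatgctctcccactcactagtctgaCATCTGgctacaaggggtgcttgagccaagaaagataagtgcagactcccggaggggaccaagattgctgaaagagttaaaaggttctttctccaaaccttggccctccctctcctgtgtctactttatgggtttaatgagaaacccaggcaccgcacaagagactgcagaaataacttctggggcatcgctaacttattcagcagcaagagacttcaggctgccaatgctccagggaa
The E-box lay 93 bases before the Angptl7 start and 189 bases before the Fmod start, counted to the first base of the match. It was in 17.2% of all 32851 promoter windows of the same length, and the SOX-type letters were in 12.6%. The windows of Chad and Fibin held neither, as did those of Cilp, Cilp2, Thbs4 and Col11a1. Fmod was thus the only gene outside the markers with a match among those read. No window was available for Chrdl1, Comp or Scx. The windows follow the RefSeq starts. By the gene positions given above, Fibin starts further upstream, inside its window. Much of that window is then within the gene, and less of it lies before the gene. A match describes letters and is no evidence of binding, and an absent match says only that these letters are not in the window.

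Genes outside the 8 of the rule were compared between members and other matrix-rich cells within each library. A gene was measured with a mean of the 2 levels of at least 20 CPM and at least 20 UMIs in all, and is called higher or lower at 2-fold. At P7, 201 of 6598 measured genes (3.05%) were higher in members and 425 (6.44%) lower, and the median gene stood at −0.19 on the log2 scale. Centred on that median, 293 were higher and 280 lower. At P30, 75 of 5817 (1.29%) were higher and 99 (1.7%) lower, with a median of −0.07. Of 5423 genes measured in both libraries, 158 were higher at P7 and 68 at P30, with 56 higher in both. Lower genes numbered 304 at P7 and 62 at P30, with 53 lower in both. Past 2-fold in opposite directions were 0 genes, which leaves aside genes that crossed equal levels by less. The list counts below are to be read against these percentages and medians. The lists overlap: Comp stands in the tendon, cartilage and matricellular lists, and Fmod in the tendon and leucine-rich lists.

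Of 12 measured tendon genes, 7 were higher in members at P7 and 5 at P30, and 0 were lower in either (median log2 ratio 1.18 and 0.90). Scx, the transcription factor of tendon progenitors, stood at 123 CPM in members and 44.9 CPM in other matrix-rich cells at P7, and at 123 and 43.3 CPM at P30. Its log2 ratios of 1.45 (interval 0.96 to 1.94) and 1.51 (1.27 to 1.75) were alike in both libraries. The UMIs came from 48 of 153 and 212 of 831 members, with no cell holding more than 7.79% of them. The other measured factors of the list, the early growth response genes Egr1 and Egr2, had log2 ratios between −0.33 and 0.25. Mkx, a tendon homeobox factor, was below the level minimum, with 10 and 29 UMIs in members.

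Among tendon matrix genes, Fmod, which encodes the collagen-fibril-binding proteoglycan fibromodulin, stood at 2315 CPM in members against 396 CPM in the others at P7 and at 1364 against 239 CPM at P30 (log2 2.55 and 2.51). It was carried by 145 of 153 and 687 of 831 members. Comp, the cartilage oligomeric matrix protein that links collagen fibrils, stood at 521 against 25.04 CPM at P7 and at 1021 against 151 CPM at P30. Its log2 ratio was 4.38 (3.90 to 4.90) at P7 and 2.76 (2.65 to 2.87) at P30, with the comparison cells higher at P30. Thbs4, a thrombospondin of tendon and muscle attachments, stood at 94.1 against 8.35 CPM and at 96.7 against 11.1 CPM (log2 3.49 and 3.12). Col12a1, a collagen that coats the surface of fibrils, was higher by 1.11 and 1.14 on the log2 scale.

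Not every tendon gene took part. Tnmd, which encodes the tenocyte membrane protein tenomodulin, had 1 UMI in P7 members and 4 UMIs in P30 members, all 4 from 1 cell, and 0 in other matrix-rich cells. Tppp3, a tubulin-binding protein of tendon sheath cells, had log2 ratios of −0.19 and 0.01. Col14a1, which encodes a fibril-associated collagen, stood at 399 against 385 CPM at P7 and at 74.1 against 133 CPM at P30. Thbs1 and Tnc were called at P7 alone, with log2 ratios of 1.24 and 1.77 there and of 0.89 and 0.69 at P30.

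Of the measured cartilage genes, 12 of 17 were higher at P7 and 9 of 15 at P30, and 0 were lower (median log2 ratio 2.37 and 1.22). The type XI collagen chains nucleate thin fibrils. Col11a1 stood at 812 against 117 CPM at P7 and at 135 against 21.2 CPM at P30 (log2 2.80 and 2.67), and Col11a2 at 531 against 91.8 and at 132 against 26.9 CPM (2.53 and 2.30). The ratio was kept while the level of both sides was lower at P30. Col9a1, a chain of the type IX collagen on cartilage fibrils, had log2 ratios of 1.40 and 1.22, whereas Col9a3 stood at 67.0 against 75.8 CPM at P7 and was below the level minimum at P30. Col2a1, the main fibrillar collagen of cartilage, reached 38.3 CPM in P7 members from 24 UMIs, against 4.49 CPM in the others, and had 5 UMIs in P30 members.

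Proteins between the fibrils were higher for 8 of 9 measured at P7 and 6 of 9 at P30, with medians of 2.96 and 1.39 beside 2.53 and 2.30 for the cartilage collagens. Cilp2, a cartilage intermediate layer protein, stood at 311 against 16.7 CPM at P7 and at 213 against 19.2 CPM at P30 (log2 4.22 and 3.47). Cilp, its relative, stood at 47.8 against 5.78 CPM and at 364 against 52.1 CPM (3.05 and 2.80), so its level differed more between the libraries than its ratio did. Prg4, which encodes the joint lubricant lubricin, stood at 5861 against 1703 CPM and at 9303 against 4255 CPM (1.78 and 1.13). Cytl1, a small secreted protein of cartilage, had log2 ratios of 1.52 and 1.61, and Ucma, a protein of unique cartilage matrix, 2.96 and 1.39. Acan, the large aggregating proteoglycan, was measured at P7 alone, at 74.9 against 8.99 CPM.

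The cartilage factors did not follow the matrix genes. Sox9, the main transcription factor of chondrocytes and also a valve factor, stood at 474 in members and 430 CPM in the others at P7, and at 441 and 432 CPM at P30 (log2 0.14 and 0.03). Sox5 had log2 ratios of −0.07 and −0.02, and Sox6 of 0.60 and 0.46. Of 8 genes that mark skeletal chondrocytes, Snorc was at 0 in members of both libraries, and Matn1 and Col10a1 were at 0 at P7 and had 1 UMI each at P30. The list as a whole was higher in members, at 754 CPM against 239 CPM in the other matrix-rich cells at P7 and at 164 against 62.5 CPM at P30. At least 3 UMIs of it were in 33.3% of members and 8.79% of the others at P7, and in 6.02% and 1.09% at P30. Col9a1 gave 569 of the 754 CPM in P7 members and Ucma 98.7 of the 164 CPM in P30 members. Members were thus higher in Scx and in most measured cartilage matrix genes than the other matrix-rich cells as a whole, with Sox9 at close levels.

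**Figure D2:**
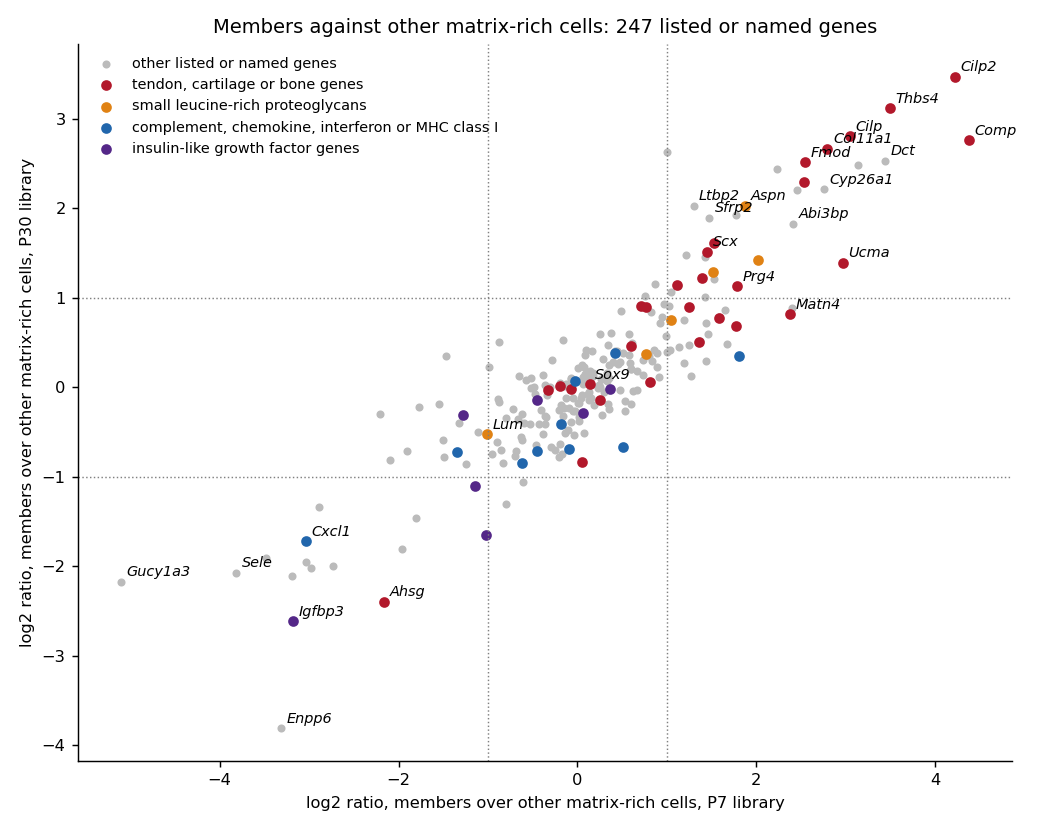
Each point is 1 of 247 listed or named genes measured in both libraries, at its log2 ratio of members over other matrix-rich cells at P7 (horizontal axis) and P30 (vertical axis), with colours for gene groups and dotted lines at 2-fold. Comp, Cilp2 and Thbs4 lie at the upper right and Igfbp3 and Enpp6 at the lower left, and the Dct point rests on 1 cell in each library.

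The small leucine-rich proteoglycans, which sit on collagen fibrils and limit their width, were higher in members for 5 of 7 measured genes at P7 and 5 of 9 at P30 (median log2 ratio 1.51 and 1.29). Prelp stood at 1598 against 394 CPM at P7 and at 1976 against 738 CPM at P30. Aspn, which encodes asporin, stood at 1079 against 295 CPM and at 555 against 136 CPM. Ogn, the osteoglycin gene, stood at 625 against 219 CPM and at 767 against 314 CPM. Lum went the other way: lumican stood at 820 CPM in P7 members against 1655 CPM in the others (log2 −1.01), and at 1400 against 2016 CPM at P30 (−0.53). Members thus had more fibromodulin and less lumican than the cells they were compared with. Of bone and mineral genes, 2 of 4 were higher and 1 lower at P7, and 2 of 8 higher and 1 lower at P30. Mgp, the inhibitor of mineral deposition, was higher at P7 (1.36) and less so at P30 (0.50), and Ahsg, the gene of the circulating mineral-binding protein fetuin-A, was lower in both (−2.16 and −2.40).

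Fibrillar collagens outside the rule were higher for 4 of 6 genes at P7 and 2 of 6 at P30. Beyond the cartilage chains, Col5a2 stood at 3061 against 1503 CPM at P7 and at 937 against 500 CPM at P30 (log2 1.03 and 0.90). Enzymes that modify or cross-link collagen were higher for 5 of 19 and 4 of 18 measured genes, and 0 were lower (median log2 ratio 0.45 and 0.32). Lox, which encodes lysyl oxidase, stood at 556 against 256 CPM at P7 and at 58.2 against 26.7 CPM at P30. Loxl3, its relative, had log2 ratios of 1.21 and 1.48, and Plod2, the hydroxylase of the collagen cross-link sites, of 1.04 and 1.07. Loxl2 stood at 1583 against 868 CPM at P7 and at 811 against 365 CPM at P30, which put it past 2-fold at P30 alone.

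Elastic fibre genes were higher for 3 of 15 and lower for 1 of 15 in each library, with medians of 0.12 and −0.08. Fbln5, which encodes the elastin-binding fibulin 5, was higher in both (1.43 and 1.01), as was Ltbp2, a latent TGF-beta binding protein (1.30 and 2.03). Eln itself, the elastin gene, stood at 129 against 148 CPM at P7. Of 19 measured matricellular genes, which modulate cell contact with the matrix, 10 were higher and 1 lower at P7, and 4 were higher and 1 lower at P30. Cthrc1, a collagen triple helix repeat protein, had log2 ratios of 1.53 and 1.21, and Wisp2 of 1.42 and 1.45. Matn2, a matrilin, was the lower gene in both, at 19.1 against 142 CPM and at 42.3 against 107 CPM. Postn, a common interstitial gene, was lower in members by less than 2-fold (−0.53 and −0.41).

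The remaining genes named by rank among those higher in both libraries were of several kinds. Col8a2, a network-forming collagen chain, stood at 147 against 16.7 CPM at P7 and at 223 against 39.8 CPM at P30. Abi3bp, a matrix protein, stood at 3120 against 587 CPM and at 1638 against 462 CPM. Cyp26a1, the enzyme that breaks down retinoic acid, stood at 513 against 75.8 CPM and at 234 against 50.6 CPM. Pappa2, a protease of insulin-like growth factor binding proteins, stood at 131 against 23.8 CPM and at 130 against 28.3 CPM. Fgf9, a fibroblast growth factor, had log2 ratios of 2.23 and 2.44, and Kcnj15, a potassium channel subunit, 1.77 and 1.93. At P7, Fgf9 was carried by 26.8% and Cyp26a1 by 68.0% of members, and the fullest cell held 14.3% of the Fgf9 UMIs and 4.66% of the Cyp26a1 UMIs.

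Dct was the exception. This pigment enzyme gene ranked among the higher genes in both libraries with log2 ratios of 3.44 and 2.53, but 1 cell held 43 of its 48 UMIs at P7 and 1 cell held 163 of 175 at P30. Without that cell the ratios were 0.21 and −1.33. The same cells held the melanocyte genes Pmel (5 and 5 UMIs) and Mlana (1 and 7 UMIs).

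Genes lower in members in both libraries included signalling, chemokine and adhesion genes. Igfbp3, which encodes a binding protein for insulin-like growth factors, stood at 19.1 CPM in members and 173 CPM in the others at P7, and at 57.8 and 355 CPM at P30 (log2 −3.18 and −2.62). Enpp6, a choline phosphodiesterase, had 0 UMIs in P7 members, which with a floor of 3 UMIs in members put it at least 9.93-fold lower than the 47.5 CPM of the others, and stood at 4.40 against 61.8 CPM at P30. Atp1b1, a subunit of the sodium pump, stood at 70.2 against 465 CPM and at 61.9 against 247 CPM. Gucy1a3 and Gucy1b3, the subunits of the nitric oxide receptor, had log2 ratios of −5.11 and −2.98 at P7 and of −2.17 and −2.03 at P30. In the 153 P7 members Gucy1a3 had 2 UMIs, both in 1 cell.

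The adhesion molecule gene Sele stood at 12.8 against 179 CPM at P7 and at 12.9 against 54.1 CPM at P30. The neutrophil-attracting chemokine Cxcl1 stood at 25.5 against 209 CPM at P7 and at 341 against 1124 CPM at P30 (−3.03 and −1.72), and its relative Cxcl2 at 4.78 against 43.7 and at 49.0 against 211 CPM. Bmx, a kinase gene, had ratios of −3.48 and −1.91, and Fap, a protease of activated fibroblasts, of −3.03 and −1.96. Each of these genes was lower in both libraries, and each had fewer than 20 UMIs in P7 members, so the P30 ratios are the more precise.

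Of 9 measured insulin-like growth factor genes, 0 were higher and 5 lower at P7, and of 7 at P30, 0 were higher and 3 lower (median log2 ratio −1.03 and −0.31). Igfbp5 was lower in both (−1.14 and −1.10), as was Igf2 (−1.03 and −1.65). Igf1, by contrast, stood at 1094 against 1494 CPM and at 910 against 1006 CPM. Pappa2, described above, was thus higher in cells whose Igfbp3 and Igfbp5 levels were lower.

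Complement and chemokine genes were measured for 5 genes at P7, of which 1 was higher and 1 lower, and for 12 at P30, of which 0 were higher and 5 lower (median log2 ratio −0.94 at P30). C4b, a complement component, stood at 84.9 against 201 CPM at P30 and Ccl2, a monocyte chemokine, at 32.8 against 117 CPM. The P7 median of 0.42 rested on 5 genes and changed sign under other settings. Interferon-response and MHC class I genes at P30 were lower for 4 of 17 measured, with a median of −0.71. The 4 were H2-Q4 (−1.07) and H2-T23 (−1.23), which encode MHC class I chains, the immunoproteasome subunit Psmb8 (−1.06) and the interferon-induced Rtp4 (−1.20). B2m, the light chain of MHC class I, stood at 1959 against 3159 CPM, less than 2-fold apart. The MHC class II genes Cd74, H2-Aa and H2-Eb1 were lower as well (−1.87, −1.71 and −2.19). Macrophage markers moved the same way at P30, at 89.6 CPM in members over 9 of 10 genes detected and 181 CPM in the others over 9 of 10, with Adgre1 at 0 in both. At P7 they stood at 57.4 and 21.8 CPM. The part of other cell types in these differences was not tested.

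Of the BMP and TGF-beta pathway genes, 0 of 29 and 0 of 27 were higher and 2 were lower in each library, with medians of 0.01 and −0.14. By role, 0 of 8 receptors and 0 of 6 Smad genes at P7 passed 2-fold, and 0 of 6 of each at P30. Id4, a target of BMP signalling, was lower in both (−1.96 and −1.81), Inhba, a subunit of activin, was lower at P7, and Fst, the activin antagonist follistatin, at P30. Of Wnt pathway genes, 4 of 18 were higher and 1 lower at P7, and 1 of 17 was higher at P30, with medians of 0.10 and 0.11. The genes higher at P7 were mainly secreted antagonists, 3 of 5 measured with a median of 1.47. Sfrp2 stood at 4555 against 1640 CPM at P7 and at 486 against 131 CPM at P30 (1.47 and 1.90), Wif1 at 1218 against 381 and at 2230 against 1591 CPM (1.68 and 0.49), and Frzb at 113 against 37.9 and at 295 against 171 CPM. Sfrp1 ran the other way, at 507 against 980 and at 266 against 448 CPM.

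Levels of some genes were also graded among the members, and for others no grading was seen. In matrix-rich cells of 2000 to 10000 UMIs, which narrows the difference in depth, levels were read by the number of marker UMIs in the cell. Comp stood at 6.996 CPM in 172 P7 cells with no marker UMI, 97.5 CPM in 34 cells with 2, 98.2 CPM in 18 cells with 3 and 834 CPM in 28 cells with 10 or more. At P30 it stood at 76.8 CPM in 730 cells with none, 297 CPM with 2, 314 CPM with 3 and 1623 CPM in 231 cells with 10 or more. The Comp levels just inside and just outside the minimum were thus close, at P7 from only 7 and 13 UMIs. Igfbp3 at P30, by contrast, stood at 376 CPM in cells with 2 marker UMIs and 116 CPM in cells with 3. Fmod ran from 221 to 3356 CPM at P7 and from 117 to 2158 CPM at P30 between the cells with none and those with 10 or more. Igfbp3 ran from 151 to 0 CPM and from 364 to 12.6 CPM, and Cxcl1 from 229 to 26.7 CPM and from 1316 to 226 CPM. Col1a1, a gene of the rule, ran from 3084 to 15980 CPM and from 1481 to 4479 CPM. Among P7 members Scx had no steady rise, at 168 CPM with 3 marker UMIs, 69.4 with 4 to 5, 174 with 6 to 9 and 100 with 10 or more. These levels rested on 12, 8, 19 and 15 UMIs with overlapping intervals, so they cannot tell a rise from none. At P30 Scx stood at 60.7 CPM with 3 and 167 CPM with 10 or more. Cxcl1 showed no further fall among P7 members, at 0 CPM with 3 (interval up to 51.8) and 26.7 CPM, from 4 UMIs, with 10 or more.

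**Figure D3:**
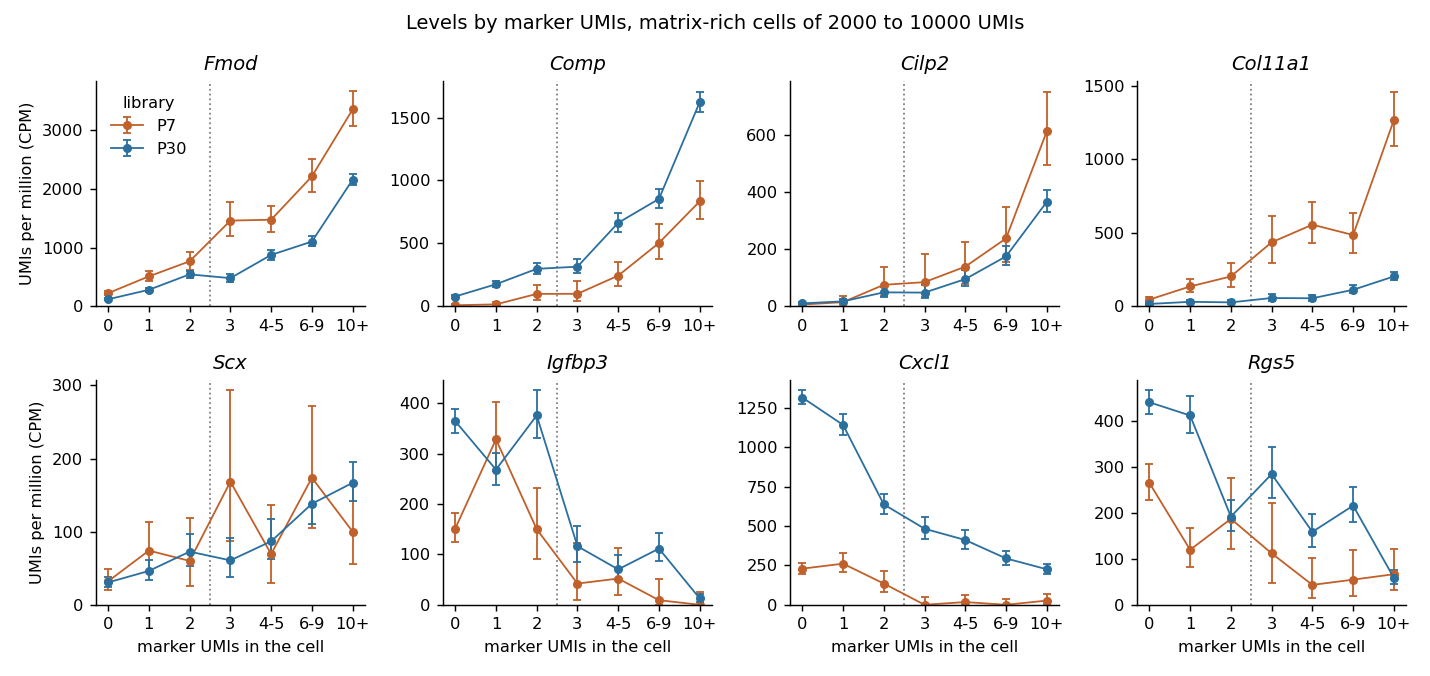
Level in CPM (vertical axis) by marker UMIs in the cell (horizontal axis) for 8 genes in matrix-rich cells of 2000 to 10000 UMIs, P7 in orange and P30 in blue, with 95% counting intervals; the dotted line marks the minimum of 3. Comp rises to 834 and 1623 CPM and Igfbp3 falls to 0 and 12.6 CPM in cells with 10 or more marker UMIs.

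The 4 markers did not mark the same members in the same way. At P30, 213 members with at least 2 Chad UMIs were set beside 539 with none. The Chad carriers held Clec3a, a C-type lectin of cartilage, at 120 against 14.4 CPM (log2 3.06), Cilp2 at 452 against 108 CPM (2.06), Cytl1 at 897 against 233 CPM (1.95) and Spp1, which encodes osteopontin, at 141 against 26.3 CPM (2.42). Of the Spp1 UMIs in P30 members, 53 of 169 came from 1 cell, and without it the ratio of members over other matrix-rich cells moved from 3.90 to 3.36. Chad carriers also held less Mmp3, a matrix protease, at 36.8 against 374 CPM. At P7, with 23 carriers against 118, Cilp2 (1.78), Cytl1 (1.66) and Clec3a (1.66) were higher in the same direction.

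Angptl7 and Fibin divided the P30 members on another set of genes. The 551 members with at least 2 Angptl7 UMIs held Mmp3 at 311 CPM against 48.5 CPM in the 159 with none (log2 2.68), and Igfbp3 at 75.8 against 13.1 CPM (2.54). The 506 with at least 2 Fibin UMIs showed the reverse against 180 with none, with Mmp3 at 107 against 746 CPM (−2.81) and Igfbp3 at 22.3 against 150 CPM (−2.75). Npy, a neuropeptide gene, was lower with Angptl7 (−0.80) and higher with Fibin (1.19), and Thbs4 likewise (−0.58 and 1.48). Ogn was higher with Angptl7 (1.20) and not with Fibin (−0.26). Membership needs 3 UMIs in all, so a cell without 1 marker must carry others, and part of such contrasts is set by the rule. At P7 only 9 members lacked Fibin, and Mmp3 and Igfbp3 were below the level minimum there.

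Chrdl1 carriers, 159 against 538 at P30, had more Sfrp2 (1.81), Cilp2 (1.76), Col11a1 (1.66) and Cilp (1.55). The genes ranked highest with Chrdl1 were cell cycle genes, among them Top2a, a topoisomerase, at 214 against 25.5 CPM. Those ranked with Fibin were mostly so. Cenpe was ranked with Chad and Angptl7 as well, so such genes were not particular to Chrdl1 and Fibin. These rest on few cells: Top2a and Cenpf were each carried by 20 of 831 P30 members, Kif23 and Spc25 by 13 each and Ube2c by 8. Cenpe, a kinetochore motor, was carried by 13, of which 1 held 42 of 101 UMIs. Cenpo, ranked with Angptl7 and Fibin, had 113 of its 121 UMIs in 1 cell, and its ratio of members over others moved from 4.22 to 0.31 without it. Car3, ranked with Fibin, had 150 of 482 UMIs in 1 cell.

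**Figure D4:**
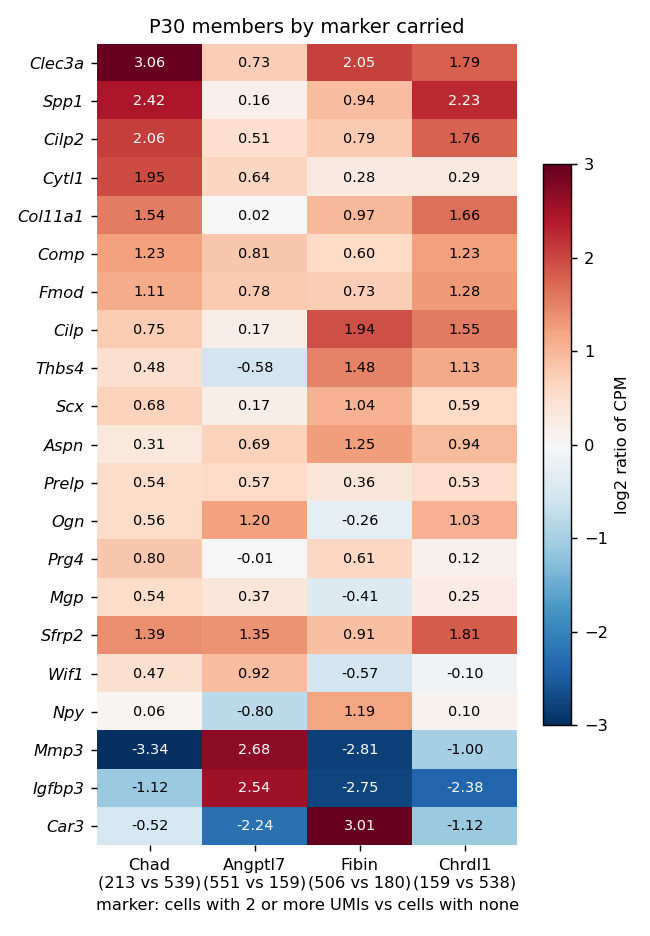
Log2 ratio of CPM between P30 members with at least 2 UMIs of a marker and members with none of it (columns, with the numbers of cells), for 21 genes (rows); red is higher with the marker and blue lower, on a scale from −3 to 3. Mmp3 and Igfbp3 are red with Angptl7 (2.68 and 2.54) and blue with Fibin (−2.81 and −2.75), while Clec3a is highest with Chad (3.06).

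Among genes past 2-fold at P30 but not at P7, Clec3a stood at 44.6 against 1.28 CPM at P30 (log2 5.13) and was below the level minimum at P7, where members held 23 of 24 UMIs. It was therefore not absent from P7 members. Angptl1, a relative of Angptl7, stood at 45.3 against 7.31 CPM at P30 and at 59.0 against 29.5 CPM at P7 (2.63 and 0.998), and Omd, which encodes osteomodulin, at 35.2 against 11.1 CPM at P30. Ccdc3, a secreted protein gene, stood at 76.8 against 30.2 CPM at P30, with 5 UMIs in P7 members, and the transcript RP23-103I12.13 had log2 ratios of 0.83 and 1.18. The genes lower at P30 but not called at P7 included Gstm2, a glutathione transferase (−2.21), the growth factor Areg (−2.27, with 9 of its 21 UMIs in 1 member), the chemokine Ccl7 (−2.05) and the sodium channel Scn7a (−1.77).

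Members of the 2 libraries were then set side by side. Of 6061 measured genes, 337 (5.56%) were at least 2-fold higher in P30 members and 674 (11.1%) lower, with a median of −0.13. Age and run cannot be told apart, and the same ratio in the other matrix-rich cells is given beside the members' values. Over the 6479 genes measured in those cells the median was −0.26, and the share of them past 2-fold was not counted. The cartilage collagens were lower at P30 for all 4 measured chains (median log2 ratio −3.02), and −2.87 over the same 4 in the other cells. Col9a1 fell from 569 to 52.4 CPM in members and from 216 to 22.5 CPM in the others. Matn4, a matrilin, was lower by a wider margin in members, from 532 to 45.7 CPM, than in the others, from 103 to 26.0 CPM (−3.54 and −1.99). Fibrillar collagens outside the rule were lower for 5 of 6 and higher for 1 of 6 in members, and lower for 4 of 6 in the others. Lox stood at −3.26 in members and −3.26 in the others, Eln at −3.82 and −4.08, and Fbn2, the fibrillin of early elastic fibres, at −4.52 and −3.75. Nrep, a gene of developing tissue, stood at −3.37 and −3.41, and Sfrp2 at −3.23 and −3.65. The drop in these genes was thus seen on both sides of the marker minimum. C1qtnf3, a collagen-like secreted protein, stood at −4.18 in members and was below the level minimum in the others.

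Other matrix genes were higher at P30. Cilp was 2.93 higher on the log2 scale in members and 3.17 in the others, Cytl1 2.62 and 2.54, and Mgp 1.47 and 2.34, from 7078 to 19673 CPM in members. Comp was higher by 0.97 in members and by 2.59 in the others. Small leucine-rich proteoglycans were past 2-fold for 0 of 9 in members (median 0.07), and Scx was level between the libraries (0.01 in members, −0.05 in the others). Between the 2 libraries, cartilage genes in members thus differed in both directions, with the collagens lower and Cilp and Cytl1 higher at P30.

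The genes ranked highest at P30 in members included interferon-induced genes. Ifi27l2a, an interferon-induced gene, was 7.14 higher on the log2 scale in members and 7.50 in the others. Interferon-response and MHC class I genes were higher for 12 of 14 in members (median 3.12) and 14 of 16 in the others (3.32). Apod, a lipid carrier, and the small nucleolar RNA Snord13 were higher by 5.84 and 5.97, each from 1 UMI in P7 members, and Mmp3 by 5.03 from 5 UMIs. Isg15 and Cyp2e1 had 0 UMIs in P7 members, and with a floor of 3 they were at least 12.3-fold and 14.6-fold higher at P30, beside log2 ratios of 5.41 and 5.35 in the other cells. Gstm1 and Mt2, a metallothionein, were higher by 5.24 and 4.81, from 2 and 3 UMIs at P7, and by 2.58 and 3.66 in the other cells. Of these genes, Ifi27l2a, Snord13, Apod and Mmp3 differed between the libraries by similar amounts in members and in the other cells (7.50, 5.62, 6.10 and 5.63 in the latter).

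**Figure D5:**
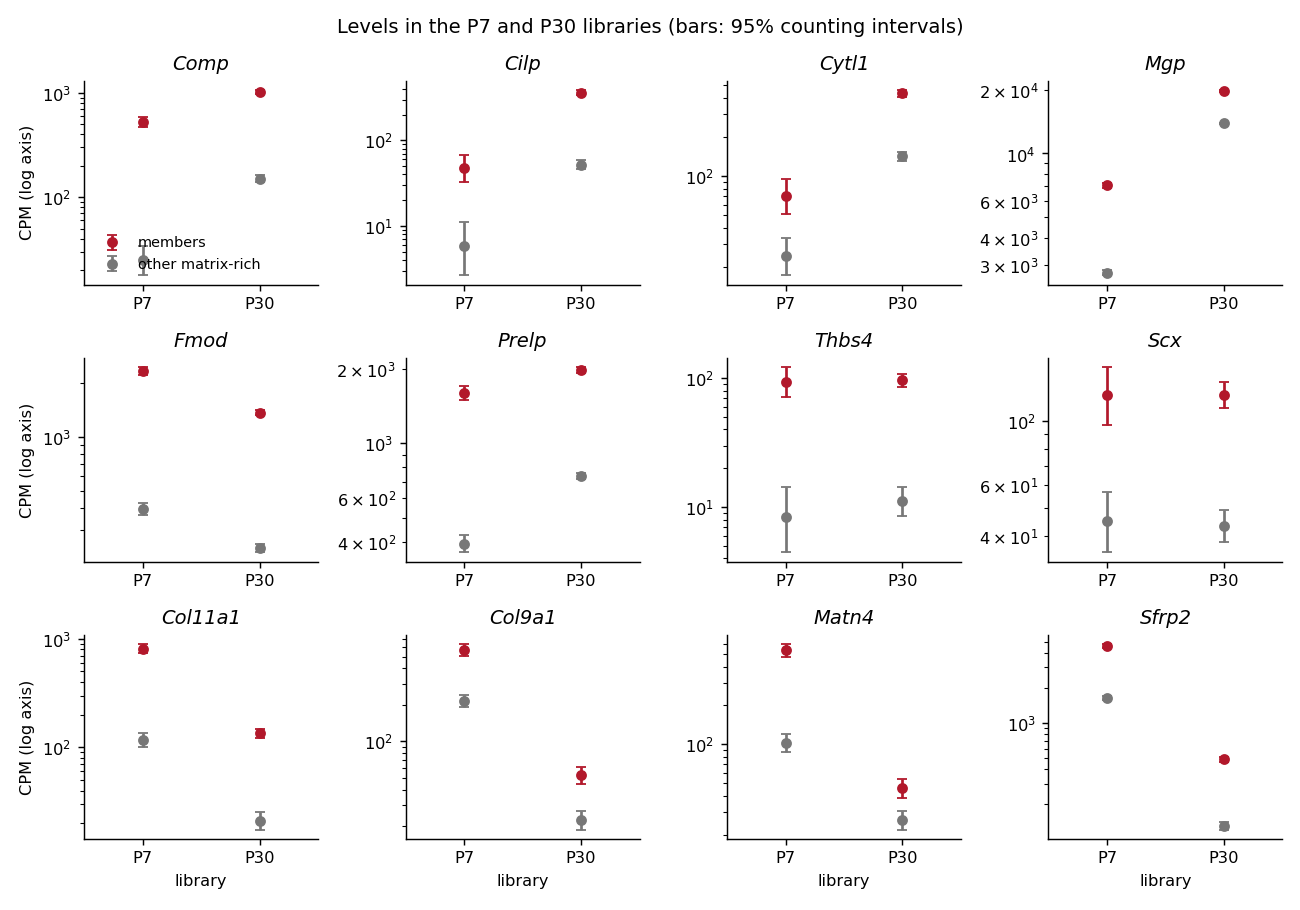
Level in CPM (logarithmic vertical axis) of 12 genes in the P7 and P30 libraries, members in red and other matrix-rich cells in grey, with 95% counting intervals. Col11a1, Col9a1, Matn4 and Sfrp2 are lower at P30 and Cilp, Cytl1 and Mgp higher on both sides, while Scx stays at 123 CPM in members.

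The markers of other cell types were read in members to see what else the barcodes held. Interstitial markers were present in all members of both libraries, each with at least 3 UMIs over the 10 genes. The same held for 99.8% and 100% of the other matrix-rich cells, so it does not set members apart. The list stood at 21675 against 17997 CPM at P7 and at 32912 against 26844 CPM at P30. Mgp gave 7078 and 19673 CPM of the members' sums. Lum and Postn of this list were lower in members, as given above. So was Pdgfra, with log2 ratios from −2.2 to −1.7 at P7 and −1.6 to −1.1 at P30 over the settings tried. Endothelial markers stood at 128 CPM in P7 members and 129 CPM in the others, mostly Eng, with Emcn, Kdr, Cldn5 and Esam at 0 in members. At P30 they stood at 97.4 and 174 CPM, with Cldn5 at 0 in members. Mural cell markers were lower in members, at 145 against 394 CPM and at 241 against 496 CPM, with 8 and 7 of 8 detected and Des at 0 in P30 members. Adipocyte, mesothelial and mast cell lists summed to at most 7.78 CPM in members. The erythroid list stood at 15278 CPM in P7 members and 7734 CPM in the others, with all 6 and 5 of 6 genes detected, and at 2728 and 3252 CPM at P30. A single P7 member held 33.7% of the Hba-a1 UMIs and 35.1% of the Hbb-bs UMIs, and Hba-a1 reversed from 1.04 to −0.11 in cells of 2000 to 10000 UMIs. The part of this red cell RNA in the P7 ratios was not tested.

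Other interstitial groups chosen by their own marker pairs overlapped the members to different degrees. Cells carrying Npy and Tppp3 (69 and 421) shared 26 cells at P7 and 196 at P30 with the members, which is 37.7% and 46.6% of the former and 17.0% and 23.6% of the latter. Cells carrying Matn4 and Col9a1 (146 and 24) shared 78 and 17, which is 53.4% and 70.8% of them and 51.0% and 2.05% of members. Igfbp3 and Fgl2 cells (51 and 382) shared 1 and 56, which is 1.96% and 14.7% of them and 0.654% and 6.74% of members. Rgs5 and Coch cells (42 and 310) shared 5 and 51. Clca1 and Col6a6 cells shared 1 of 66 at P7, and Areg and Ereg cells 3 of 37 at P30. Members made up 21.2% and 29.2% of all matrix-rich cells, and 27.5% and 34.1% of those with 2000 to 10000 UMIs, the shares against which these overlaps are read. These groups were deeper than the other matrix-rich cells, whose medians were 1940 and 2327 UMIs. Npy and Tppp3 cells had medians of 4190 and 3421 UMIs, and Matn4 and Col9a1 cells of 3604 and 4288.5. The part of depth in the overlaps was not tested.

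Set beside these groups with the shared cells left out on both sides, members stood apart in some genes and not in others. Comp stood at 515 CPM in 127 P7 members and 29.3 CPM in 43 Npy and Tppp3 cells, and at 1055 against 231 CPM at P30 (log2 4.14 and 2.19). Cilp2 stood at 311 against 9.76 CPM and at 225 against 25.9 CPM in the same groups. Scx was close to these cells, at 115 against 82.9 CPM at P7 (log2 0.47, interval −0.34 to 1.35) and at 99.7 against 86.2 CPM at P30 (0.21, −0.19 to 0.62). It was also close to the Matn4 and Col9a1 cells at P7 (0.45, −0.43 to 1.33) and to 34 Areg and Ereg cells at P30 (0.13, −0.54 to 0.87). Some cartilage genes were close too. Against the Matn4 and Col9a1 cells at P7, Acan was at 0.33 (−1.18 to 1.83) and Ucma at 0.06 (−1.99 to 2.04). Cytl1 was at 0.55 (−1.25 to 2.40), and each had at most 9 UMIs a side. Comp (2.78), Cilp2 (2.16) and Col11a1 (1.04) were higher in members there. Col9a1 was close to the Npy and Tppp3 cells, at 0.23 (−0.14 to 0.60) and 0.24 (−0.39 to 0.92). The intervals of Scx, Acan, Ucma, Cytl1 and Col9a1 include equal levels, which does not show that the levels are the same. Against the Igfbp3 and Fgl2 cells at P30, Scx stood at 135 against 7.58 CPM. Prg4 stood at 8569 CPM in members and 9142 CPM in Npy and Tppp3 cells at P30 (−0.093), and at 5207 and 3663 CPM at P7. The higher Scx level of members thus held against the other matrix-rich cells as a whole and not against every neighbouring group.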

How the data were processed

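The authors deposited, per the labels' protocols and the file headers, a table of raw UMI counts per gene and cell barcode for each of the 2 libraries, and these counts are the only values used. The normalized tables were not used. Reads were aligned with Bowtie2 2.2.7 to mm10, per the submitters' processing notes. For the counting program, annotation and cell filter the entry is: not given in the sources used here.

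Counts were summed over the cells of a group and divided by the group's total. Levels carry exact Poisson intervals, ratios exact conditional binomial intervals and shares Clopper-Pearson intervals (95% for each). With 1 library per age there is no replicate and no test. A gene was measured at a mean of 20 CPM and 20 UMIs, and a side with 0 UMIs was set to a floor of 3. The libraries held 3116184 and 11267724 UMIs, with 622 to 33151 and 637 to 172266 per barcode. No barcode was removed. Of the barcodes, 260 and 314 ended in an unread base, 39 and 60 of them members.

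The members and gene lists were chosen with earlier results of these data known. Named genes, after removal of haemoglobin, ribosomal protein, mitochondrial and unnamed genes, were ranked by the interval bound nearest to equal levels: the 15 highest and 10 lowest called in both libraries, 8 in each direction called at P30 and not at P7, 8 in each direction between members of the libraries, and 5 per marker carried, besides members of the lists. Alternatives changed the marker and matrix minimums, the marker set, the depth range, the level minimum, cell filters, weighting and centring. Gene positions are from GENCODE M21 (GRCm38) and promoters from RefSeq GRCm38.p6. Python 3.11.15 with numpy 2.4.6, scipy 1.17.1, pandas 2.3.3 and matplotlib 3.10.9 was used, and the interval code was tested on simulated data.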

Additional observations from a re-analysis of the deposited data

How the results depend on the processing

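No paired analysis was possible because each age has 1 library, and for the same reason no replicate could be left out. The member share of matrix-rich cells, 21.2% at P7 and 29.2% at P30, was 31.3% and 38.8% with at least 2 marker UMIs and 12.7% and 19.9% with at least 5. It was 27.5% and 34.1% in cells of 2000 to 10000 UMIs, 9.42% and 20.7% without Fibin in the rule, 27.4% at P30 without Chad, 19.3% at P30 without Angptl7, and 34.2% at P30 with a matrix minimum of 2%. The P30 share was the higher of the pair in each of these settings that gave both.

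Counts of genes moved with the level minimum. The totals measured moved as well, and the counts are to be read against them. At a mean of 5 CPM, 496 were higher and 1386 lower of 10742 at P7, and 149 and 329 of 10146 at P30. Between members of the libraries they were 808 and 1641 of 10369. At 100 CPM they were 73 and 69 of 1777, 32 and 21 of 1658, and 113 and 138 of 1686. The main setting measured 6598, 5817 and 6061 genes. Centring on the median gene left 280 of 6598 lower at P7.

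Leaving out barcodes with 3 or more UMIs of other cell type markers, red cell genes included, left 14 P7 members (14.9% of those remaining). There 102 of 1522 measured genes were higher at P7, beside 201 of 6598 in the main setting. Between members at P30 and P7, 1443 of 5142 were lower, beside 674 of 6061. The interferon and MHC class I median between ages was 0.97 instead of 3.12, and Rgs5 between ages was −0.28 instead of 1.47. With red cell genes not counted, an alternative chosen after seeing the data, 140 P7 members remained. Of 6599 measured genes, 211 were then higher and 475 lower at P7. Leaving out barcodes over 20000 UMIs was also chosen after seeing the data, and kept all 115 named results past 2-fold.

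The P7 median of complement and chemokine genes was −0.0625 with 2 marker UMIs and 0.1% of UMIs, −0.36 without Fibin and −0.54 at 5 CPM. With 2 marker UMIs and 0.1% of UMIs, Dct at P30 was −3.45. In cells of 2000 to 10000 UMIs, Hba-a1 at P7 was −0.11. Except for the other-cell-type filter, where 71 of 82 measured results stayed past 2-fold, at least 108 of the 115 did so in every setting but the 100 CPM minimum, which measured 55 and kept 55. Where the setting itself does not show the cause, the cause was not tested. Depth limits genes with few UMIs in the 153 P7 members.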

Other observations

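Of 17 valve transcription factors measured at P7, 4 were higher in members than in the other matrix-rich cells and 1 lower, beside 3.05% of all measured genes higher and 6.44% lower. Of 18 at P30, 1 was higher (Scx) and 0 lower, with medians of 0.04 and −0.01 on the log2 scale. The shear-responsive factors Klf2 and Klf4 stood at 651 against 240 CPM and at 615 against 254 CPM at P7, while at P30 they stood at 534 against 438 CPM and at 1243 against 1137 CPM. Meox1, a homeobox factor, had log2 ratios of 1.43 and 0.71. Tcf21, a factor of epicardium-derived fibroblasts, stood at 28.7 against 71.9 CPM at P7 and at 56.1 against 74.4 CPM at P30. Tbx20 and Twist1, factors of the embryonic valve, stayed within 0.23 of equal levels in both libraries.

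Cell cycle genes were lower in members for 5 of 16 measured at P7, with a median of −0.76, and 0 of 6 differed 2-fold at P30. Mki67, a marker of dividing cells, stood at 47.8 against 163 CPM at P7 and at 30.8 against 36.0 CPM at P30. Between P7 and P30 the cycle genes were lower for 10 of 13 in the other matrix-rich cells (median −1.53, beside −0.26 over all measured genes there). The share of all measured genes past 2-fold in those cells was not counted. In members 1 of 7 was lower (median −0.19), beside 11.1% of all measured genes and a median of −0.13 over them. Different numbers of genes were measured on the 2 sides, so the counts are not directly comparable. Immediate early genes, which rise when tissue is dissociated, differed 2-fold for 0 of 18 in either library, with medians of 0.28 and −0.05. Contractile genes likewise differed 2-fold for 0 of 8 and 0 of 9, and Acta2, the smooth muscle actin gene, stood at 126 against 153 CPM at P7 and at 138 against 112 CPM at P30.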
